A study of Mus musculus with 8 samples.

Results

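The insulin-like growth factor (IGF) system was followed in 3T3-L1 cells through 9 genes, those for the ligand IGF1, the receptors Igf1r and Igf2r, and the binding proteins Igfbp2 to Igfbp7. The genes were taken by symbol from a table of raw read counts for 49585 Ensembl genes, and all 9 were found. 3T3-L1 is an established mouse fibroblast line that develops into fat cells when given hormones, and the study compared this development in spheroids and in flat culture. The 8 libraries form 4 groups of 2, all taken on day 7.

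The first group, 3D induced, held spheroids grown in hanging drops, each seeded with about 20000 cells in 28 µL, that received 250 nM dexamethasone and 10 nM triiodothyronine during the first 2 days and 10 µM troglitazone with 1 µg/ml insulin on all 7 days. Spheroids without these agents formed the 3D uninduced group. Flat cultures with the same agents formed the 2D induced group, and flat cultures without them the 2D uninduced group. Base medium for every group held high glucose, biotin, pantothenate, calf serum and methylcellulose per the labels. The labels do not say whether the 2 libraries of a group came from separate cultures. Each p-value therefore measures only how far these libraries vary, which may be technical. All values come from 1 cell line.

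IGF1 is a secreted hormone that acts through the receptor tyrosine kinase encoded by Igf1r, which is close kin to the insulin receptor and at high doses is also reached by insulin. IGF binding proteins hold IGFs outside the cell, lengthening their life and limiting or guiding their access to the receptor, and proteases set the ligand free by cutting them. Igf2r is the cation-independent mannose 6-phosphate receptor, which carries lysosomal enzymes and clears IGF2. In 3T3-L1 cultures, IGF1 or a high insulin dose is one of the classical signals that push preadipocytes into fat cell development.

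The clearest differences were in the binding proteins. Igfbp3 was 3.32-fold lower in induced than in uninduced spheroids and 3.33-fold lower in induced spheroids than in induced flat cultures. Igfbp4 was 2.23-fold lower in spheroids than in flat culture without induction and 3.29-fold lower with it. Of the 8 tested genes 1 was called with induction in spheroids, 1 between uninduced cultures and 2 between induced cultures. Over all genes tested, 0.911%, 9.44% and 12.4% were called in these comparisons. Igfbp7 was the most abundant binding protein transcript per length in spheroids and in uninduced flat culture. In induced flat culture Igfbp4 stood narrowly above it (301 against 285 CPM per kb of exon). Igf1 and both receptors were called in none of the comparisons in the main edgeR fit. Igf1 was, however, called with induction in flat culture in 5 of 15 alternative settings. Its calls in other comparisons came only without 3D induced replicate 2. None of the 4 binding protein calls held in all 15: Igfbp3 with induction in spheroids was lost in 8, Igfbp4 between uninduced cultures in 6, and each call between induced cultures in 1. Leaving out 1 library moved the log2 difference between induced cultures over -2.25 to -1.37 for Igfbp3 and -2.35 to -1.28 for Igfbp4.

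The promoter sequences of 4 binding proteins are given here. Igfbp3, Igfbp4 and Igfbp5 (the last not called) had lower fitted values in spheroids than in flat culture, and Igfbp7 (not called) had higher values. Igfbp6, lower between uninduced cultures (-0.61 log2) and higher between induced ones (0.19 log2), neither called, is not shown. Each is the RefSeq window of 250 bases before to 50 bases after the start site in GRCm38.p6, written 5′ to 3′ on the gene's strand. Capitals mark any match, on either strand, to 5 short motifs that are spelled out after the sequences.
Igfbp3: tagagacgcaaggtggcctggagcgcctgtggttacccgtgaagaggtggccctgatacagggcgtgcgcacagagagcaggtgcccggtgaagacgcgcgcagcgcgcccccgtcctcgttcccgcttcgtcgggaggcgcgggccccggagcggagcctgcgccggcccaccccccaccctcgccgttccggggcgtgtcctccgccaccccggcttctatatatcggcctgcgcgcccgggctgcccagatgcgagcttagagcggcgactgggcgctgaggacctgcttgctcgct
Igfbp4: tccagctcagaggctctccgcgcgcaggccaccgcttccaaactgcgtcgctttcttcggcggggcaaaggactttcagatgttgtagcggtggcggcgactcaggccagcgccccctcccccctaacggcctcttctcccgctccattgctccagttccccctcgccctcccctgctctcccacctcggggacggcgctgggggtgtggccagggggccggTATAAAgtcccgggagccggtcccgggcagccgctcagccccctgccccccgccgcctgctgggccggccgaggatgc
Igfbp5: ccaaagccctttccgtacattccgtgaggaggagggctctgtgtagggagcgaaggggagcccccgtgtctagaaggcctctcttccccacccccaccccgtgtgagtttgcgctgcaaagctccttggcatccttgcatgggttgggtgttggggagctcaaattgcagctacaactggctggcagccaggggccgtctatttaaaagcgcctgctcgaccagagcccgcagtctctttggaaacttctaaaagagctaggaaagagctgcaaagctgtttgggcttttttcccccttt
Igfbp7: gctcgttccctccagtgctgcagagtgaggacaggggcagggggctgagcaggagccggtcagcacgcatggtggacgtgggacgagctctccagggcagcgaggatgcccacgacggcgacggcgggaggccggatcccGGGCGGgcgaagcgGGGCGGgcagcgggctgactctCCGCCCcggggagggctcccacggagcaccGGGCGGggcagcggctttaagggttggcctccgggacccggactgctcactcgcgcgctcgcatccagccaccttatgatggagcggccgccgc

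The windows lie at chr11:7213874-7214173 on the minus strand for Igfbp3, chr11:99040994-99041293 on the plus strand for Igfbp4, chr1:72874816-72875115 on the minus strand for Igfbp5, chr5:77407996-77408295 on the minus strand for Igfbp7. The motif TATAAA is the core of the TATA box. The motif GGGCGG is the GC box of Sp1-type factors, and CCAAT is the box bound by NF-Y. The motif TGTTCT is a half-site of the glucocorticoid receptor. The motif AGGTCA is a half-site of the thyroid hormone receptor and the PPARs, which like the glucocorticoid receptor bind agents used for induction. The Igfbp4 window held TATAAA once, 28 bases before the start site, and the Igfbp7 window held 4 matches to GGGCGG. In the Igfbp3 and Igfbp5 windows none of these letters occurred. Over 32851 RefSeq windows of the same length, 13.6% held TATAAA, 35.7% GGGCGG, 37.4% CCAAT, 19.0% TGTTCT and 16.3% AGGTCA. All 9 genes had at least 1 window (10 in all, 2 for Igfbp2), and the only match to TGTTCT among them was in Igfbp2. These matches describe letters and are not shown to be binding sites.

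Levels are given in CPM, the count of a gene relative to the library total after trimmed-mean (TMM) scaling. Fold changes are fitted log2 values ± the standard error of the edgeR quasi-likelihood model. This model fits 1 spread per gene over all 8 libraries, so a standard error also holds the scatter of groups outside the comparison. The libraries held 11839374 to 21169390 counts, so that a level of 1 CPM stood for 11.2 to 20.1 counts. Of the genes in the file, 15255 had enough counts to be tested, and calls required a change of at least 2-fold and an adjusted p under 0.05. The fat cell label of induction held in these counts: of 8 adipocyte markers, 8 rose with induction in 2D and 6 in 3D, and Fabp4, a fatty acid carrier, had 842 and 1743 CPM in 3D induced libraries, against 38.0 and 33.2 CPM in 3D uninduced libraries. Its level was 4041 and 3613 CPM in 2D induced libraries, against 24.7 and 20.6 CPM in 2D uninduced libraries. The macrophage genes Ptprc and Adgre1, the endothelial gene Tie1 and the muscle genes Myod1 and Myog had 0 counts in every library. The 5 macrophage markers summed to 24.2 to 42.7 CPM in 3D induced, 58.7 to 60.5 in 3D uninduced, 16.0 to 16.9 in 2D induced and 15.6 to 21.0 CPM in 2D uninduced libraries, nearly all from Cd14 and Csf1r. Over all libraries, 5 endothelial markers summed to 0.0893 to 1.93 CPM and 4 muscle markers to 2.18 to 7.21 CPM. The 3D induced pair stood apart: 14.2% of tested genes differed at least 2-fold between its 2 libraries, against 2.49 to 3.68% in the other groups.

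Of the 9 genes, 8 passed the filter on low counts. Igfbp2 (ENSMUSG00000039323, chromosome 1 from 72824503 to 72852474), which in many mouse tissues is a main IGF carrier, did not: it had 4 counts in 3D uninduced replicate 1, 1 count in 2D uninduced replicate 1 and 0 in the other 6 libraries. A count of 0 allows a level of up to 0.176 to 0.268 CPM in those 6 libraries, counting error only. Its neighbour Igfbp5 lies 5457 bases away on the opposite strand, with the 3′ ends facing each other, and was detected in every library. Igfbp1, which lies 3539 bases from Igfbp3 in the same arrangement and is a liver product in mice, had 0 counts in all 8 libraries.

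**Figure D1:**
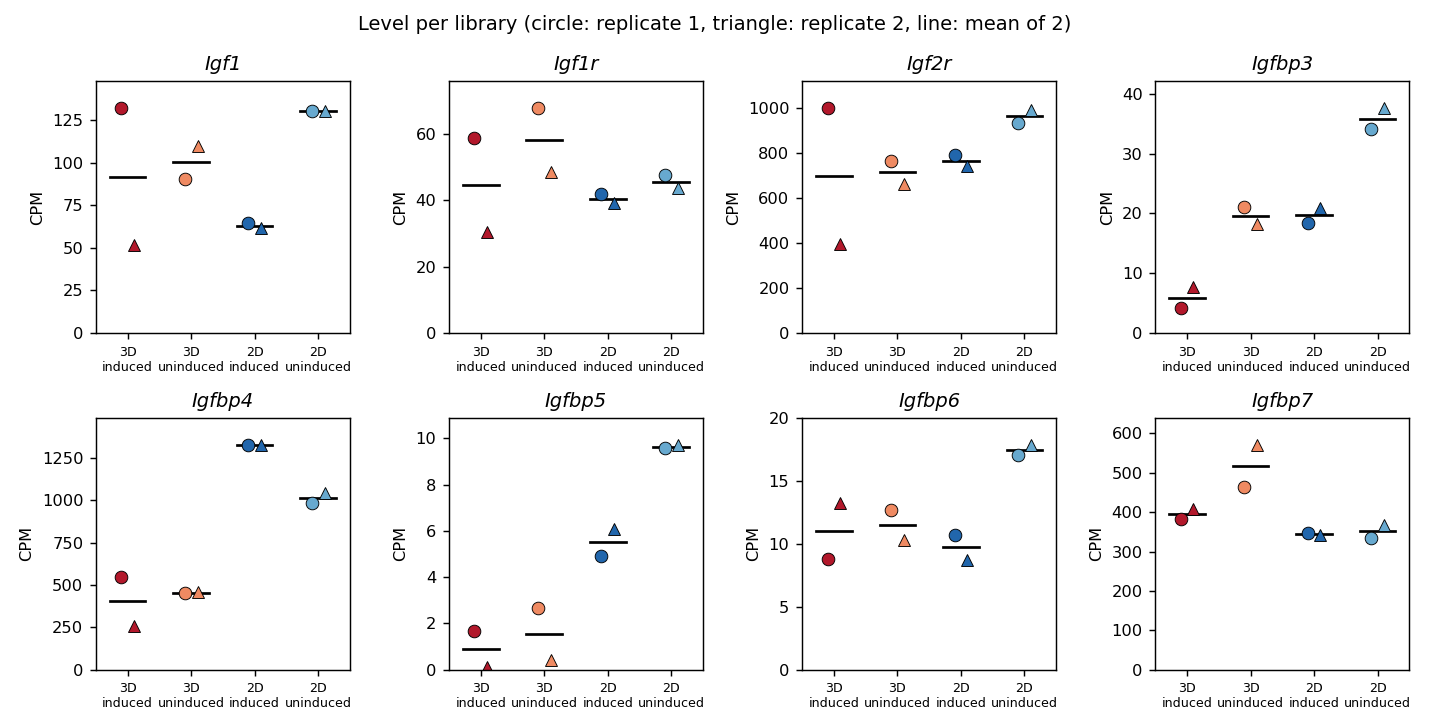
Level of the 8 tested genes in each library, in CPM on a linear axis from 0, with groups along the horizontal axis; circles are replicate 1, triangles replicate 2 and lines the mean of the 2. Igfbp3 in 3D induced libraries lies at 4.13 and 7.61 CPM, below all other libraries, and the 3D induced pair is split for Igf1, Igf2r and Igfbp4.

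Levels can be compared between genes only per length, here as CPM per kb of annotated exon. In 3D induced libraries Igfbp7 stood first at 326 ± 13.9 CPM per kb (SD, n = 2 here and throughout), then Igfbp4 at 91.4 ± 46.2 and Igf2r at 74.8 ± 45.8, whose libraries overlapped. Below them were Igfbp6 at 9.96 ± 2.89 and Igf1 at 9.25 ± 5.72, also overlapping, then Igf1r at 2.66 ± 1.19, Igfbp3 at 1.87 ± 0.786, overlapping Igf1r, and Igfbp5 at 0.151 ± 0.185 CPM per kb. In 3D uninduced libraries Igfbp7 had 428 ± 62.4, Igfbp4 103 ± 1.74, Igf2r 76.6 ± 7.52, Igfbp6 10.3 ± 1.5, Igf1 10.1 ± 1.42 (overlapping Igfbp6), Igfbp3 6.27 ± 0.624, Igf1r 3.47 ± 0.805 and Igfbp5 0.257 ± 0.261 CPM per kb. The order at the top was different in 2D induced libraries, where Igfbp4 had 301 ± 0.297 and Igfbp7 285 ± 3.62 CPM per kb. Igf2r followed at 82.1 ± 3.60, Igfbp6 at 8.75 ± 1.25, Igf1 at 6.36 ± 0.194 with Igfbp3 overlapping it at 6.28 ± 0.571, Igf1r at 2.41 ± 0.116 and Igfbp5 at 0.916 ± 0.139 CPM per kb. In 2D uninduced libraries Igfbp7 led again with 290 ± 18.3, then Igfbp4 with 229 ± 9.13, Igf2r with 103 ± 4.58, Igfbp6 with 15.8 ± 0.518, Igf1 with 13.1 ± 0.0108, Igfbp3 with 11.5 ± 0.794, Igf1r with 2.71 ± 0.165 and Igfbp5 with 1.61 ± 0.0195 CPM per kb. Exon lengths merge all annotated transcripts (9.904 kb for Igf1), so this order depends on the annotation.

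Within the 6 binding proteins, Igfbp4 and Igfbp7 together made up most of the per-length sum in every library, and their balance differed with culture format. Igfbp7, a distant member that binds IGFs weakly and insulin as well, held 70.3 and 82.1% of the sum in 3D induced libraries and 76.1 and 79.8% in 3D uninduced ones, against 47.6 and 47.1% in 2D induced libraries and 52.5 and 53.3% in 2D uninduced ones. Igfbp4 held 27.6 and 14.3% in 3D induced libraries and 20.2 and 17.6% in 3D uninduced ones, against 49.7 and 50.3% in 2D induced libraries and 42.2 and 41.5% in 2D uninduced ones. No spheroid library overlapped a flat library in either share. The sum itself was 450 and 409 CPM per kb in 3D induced libraries, against 504 and 591 in 3D uninduced libraries. In flat culture it was 604 and 598 CPM per kb with induction, against 528 and 569 without. These are shares of transcripts of 1 family, so a higher share of one gene lowers the others, and no test was made on them.

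**Figure D2:**
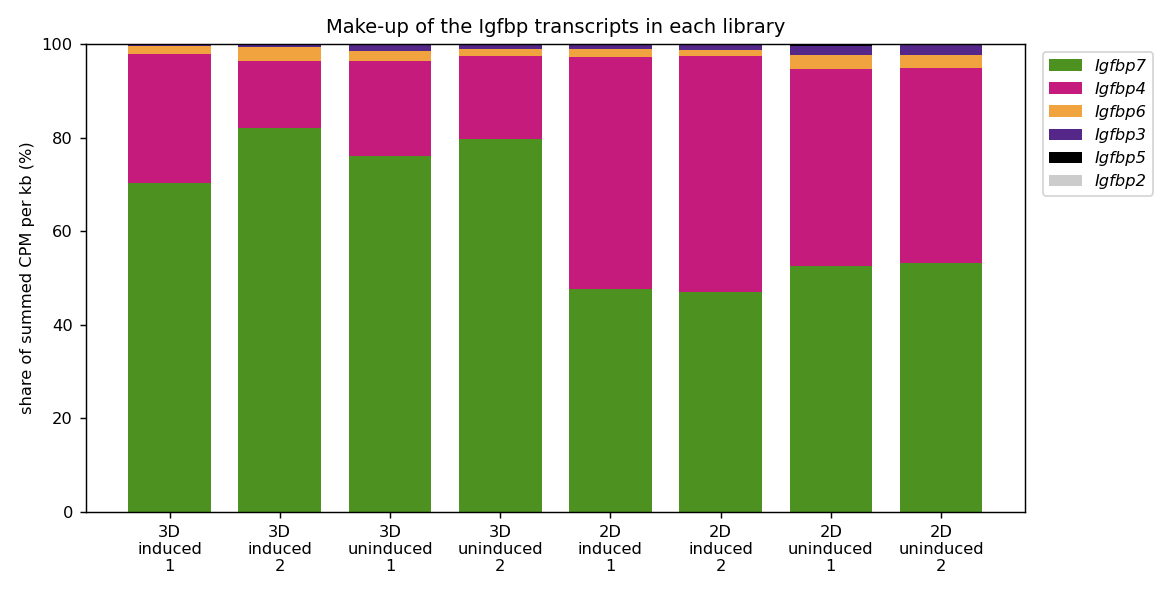
Share of each binding protein in the summed CPM per kb of Igfbp2 to Igfbp7, in percent, with 1 stacked bar per library. Igfbp7 (green) holds 70.3 to 82.1% in the 4 spheroid libraries and 47.1 to 53.3% in the 4 flat libraries.

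Induction in flat culture asked how these genes differ between cultures with and without the inducing agents. Effects of the agents themselves and of fat cell formation cannot be told apart in this design. The ligand gene Igf1 (ENSMUSG00000020053, chromosome 10 from 87858265 to 87937042) had 64.3 and 61.6 CPM in 2D induced libraries, against 130 CPM in both 2D uninduced libraries. Induced and uninduced libraries did not overlap, and the replicates were close in both groups. The fitted difference was -1.05 ± 0.36 log2 (2.06-fold lower) and was not called (adjusted p = 0.128, edgeR). Its standard error is not the scatter of the flat libraries alone. The model shares 1 spread per gene over all 8 libraries, among them the 3D induced pair at 132 and 51.6 CPM. The call depended on the setting. Igf1 was called by edgeR with the 4 flat libraries alone (-1.05, adjusted p = 4.43e-14). It was called with limma-voom group weights (adjusted p = 1.75e-05) and with DESeq2 (adjusted p = 0.0191). It was also called without 3D induced replicate 1 or 2, where that group has 1 library and no spread of its own. The cause was not tested. With no filter on low counts its adjusted p was 0.418, the highest of the 15 alternatives.

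Igfbp3 and Igfbp6 were lower by a like amount. Igfbp3 (ENSMUSG00000020427, chromosome 11 from 7206086 to 7213923), the main IGF carrier of blood, had 18.4 and 20.9 CPM in 2D induced libraries, against 34.1 and 37.6 in 2D uninduced libraries. Its difference was -0.86 ± 0.25 log2 (adjusted p = 0.0742). Igfbp6 (ENSMUSG00000023046, chromosome 15 from 102144362 to 102149511), which prefers IGF2 over IGF1, had 10.7 and 8.75 CPM in 2D induced libraries, against 17.1 and 17.9 in 2D uninduced libraries, a difference of -0.85 ± 0.24 log2 (adjusted p = 0.0694). Neither was called, and in both genes the groups did not overlap.

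Igfbp4 (ENSMUSG00000017493, chromosome 11 from 99041244 to 99054392), a carrier that restrains IGF action and is cut by the protease pappalysin, was the only tested gene of the 8 with a positive fitted value. It had 1327 and 1328 CPM in 2D induced libraries, against 985 and 1042 in 2D uninduced libraries (0.39 ± 0.29 log2, adjusted p = 0.475). Igfbp5 (ENSMUSG00000026185, chromosome 1 from 72857932 to 72874884), a carrier that also binds matrix, had 4.91 and 6.09 CPM in 2D induced libraries, against 9.56 and 9.72 in 2D uninduced libraries (-0.80 ± 0.75 log2, adjusted p = 0.578). Igfbp7 (ENSMUSG00000036256, chromosome 5 from 77349240 to 77408041) had 347 and 341 CPM in 2D induced libraries, overlapping the 335 and 367 CPM of 2D uninduced libraries. Its difference of -0.03 log2 had a 95% interval of -0.33 to 0.27.

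Both receptors were slightly lower. Igf2r (ENSMUSG00000023830, chromosome 17 from 12682406 to 12769664) had 788 and 741 CPM in 2D induced libraries, against 931 and 991 in 2D uninduced libraries (-0.33 ± 0.36 log2, adjusted p = 0.629, 95% interval -1.16 to 0.49). Igf1r (ENSMUSG00000005533, chromosome 7 from 67952827 to 68233668) had 41.9 and 39.1 CPM in 2D induced libraries, against 47.5 and 43.6 in 2D uninduced libraries (-0.17 ± 0.29 log2, adjusted p = 0.775, 95% interval -0.84 to 0.50). In all, edgeR called 0 of the 8 tested genes, against 4.52% of all genes tested (3.17% higher and 1.34% lower). None had an adjusted p under 0.05 at any fold, against 8.88% of all genes. At an unadjusted p under 0.05 there were 3 (Igf1, Igfbp3 and Igfbp6), and DESeq2 and limma-voom each called 1, Igf1. No share of all genes is given at the unadjusted threshold, so the 3 have no background here. Libraries of the 2 groups did not overlap in 7 of the 8 genes, against 69.6% of all genes tested. The median of the 8 genes was -0.565 log2, beside 0.00 over all genes.

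Induction of spheroids gave 1 called gene, Igfbp3. It had 4.13 and 7.61 CPM in 3D induced libraries (61 and 130 counts), against 21.0 and 18.2 CPM in 3D uninduced libraries (285 and 251 counts). All induced libraries lay below all uninduced ones, although the induced pair differed by 1.84-fold. Igfbp3 fell by 1.73 ± 0.26 on the log2 scale (3.32-fold, adjusted p = 0.0277, edgeR), where 0.911% of all genes were called (0.583% higher and 0.328% lower). Igfbp3 was also the 1 gene of the 8 with an adjusted p under 0.05 at any fold, against 1.36% of all genes. The 8 adipocyte markers summed to 4087 and 4561 CPM in 3D induced libraries, against 1074 and 1435 CPM in 3D uninduced libraries, and their part in the Igfbp3 difference was not tested. The call was lost in 8 of 15 alternatives, with adjusted p between 0.0905 and 0.361: with the 4 spheroid libraries alone, with limma-voom group weights, and without any 1 of the 6 libraries other than the 3D induced pair. The fitted value stayed between -2.25 and -1.36 log2 in all 15.

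The other carriers were mixed in spheroids. Igfbp7 had 383 and 407 CPM in 3D induced libraries, against 464 and 571 in 3D uninduced libraries, without overlap (-0.39 ± 0.13 log2, adjusted p = 0.238). Igfbp6 had 8.80 and 13.3 CPM in 3D induced libraries and 12.7 and 10.3 in 3D uninduced libraries, which overlapped (-0.05 ± 0.24 log2, adjusted p = 0.966). Igfbp4 had 548 and 259 CPM in 3D induced libraries, on either side of the 450 and 461 CPM of 3D uninduced libraries (-0.17 ± 0.29 log2, adjusted p = 0.884). Igfbp5 had few counts, with 25 and 2 counts in 3D induced and 36 and 6 counts in 3D uninduced libraries (-0.81 ± 0.98 log2, adjusted p = 0.824).

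The ligand and both receptors overlapped between induced and uninduced spheroids. Igf1 had 132 and 51.6 CPM in 3D induced libraries, against 90.2 and 110 in 3D uninduced libraries (-0.13 ± 0.36 log2, adjusted p = 0.941). Igf2r had 998 and 395 CPM in 3D induced libraries, against 762 and 663 in 3D uninduced libraries (-0.03 ± 0.36 log2, adjusted p = 0.986). For Igf1 and Igf2r, the 2 induced libraries lay on either side of both uninduced ones. Igf1r had 58.7 and 30.5 CPM in 3D induced libraries, against 67.8 and 48.6 in 3D uninduced libraries (-0.38 ± 0.29 log2, adjusted p = 0.684). Without 3D induced replicate 2 the values were 0.39 for Igf1, 0.48 for Igf2r and 0.26 for Igfbp4, and without replicate 1 they were -0.95, -0.85 and -0.81 log2, so 1 library decides the direction for each. Groups did not overlap in 2 of the 8 genes, against 32.6% of all genes tested.

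The 3D induced replicates differed by at least 2-fold in 4 of the 8 tested genes, against 14.2% of all genes tested. Replicate 1 was 2.55-fold higher than replicate 2 for Igf1, 2.52-fold for Igf2r, 2.11-fold for Igfbp4 and 14.5-fold for Igfbp5, the last from 25 and 2 counts. Igf1r was 1.92-fold higher in replicate 1. The opposite held for Igfbp3, 1.84-fold higher in replicate 2, and Igfbp6, 1.52-fold higher in replicate 2, while Igfbp7 differed by 1.06-fold. In the 3D uninduced pair 1 of the 8 genes differed by at least 2-fold (Igfbp5, 6.08-fold), against 3.68% of all genes tested. In the 2 libraries of 3D induced, 8 preadipocyte and fibroblast markers summed to 17168 CPM in replicate 1 and 6503 CPM in replicate 2, mostly from Col1a1 and Col1a2. The 8 adipocyte markers summed to 4087 and 4561 CPM. The part of these markers in the replicate differences was not tested, and in bulk RNA fewer cells of a type cannot be told from less RNA per cell.

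**Figure D3:**
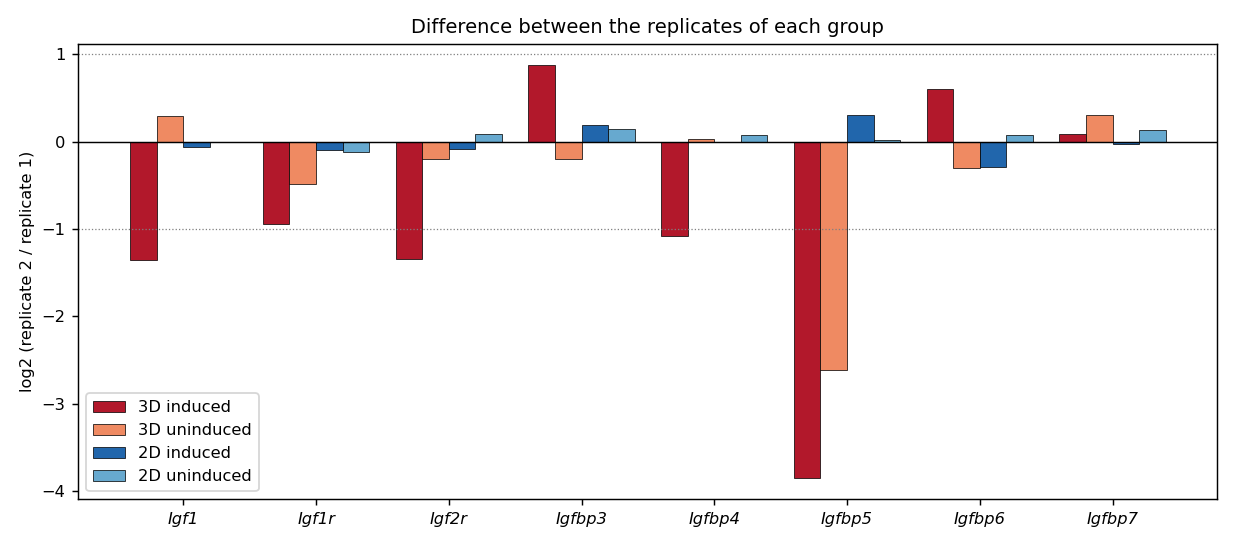
Difference between the replicates of each group, as the log2 ratio of replicate 2 to replicate 1 in CPM, for the 8 tested genes, with dotted lines at a 2-fold difference. The 3D induced bars (dark red) reach below the lower line for Igf1, Igf2r, Igfbp4 and Igfbp5 and are the tallest positive bars for Igfbp3 and Igfbp6.

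Spheroid against flat culture without induction asked how the 2 formats differ when no inducing agents are given. Igfbp4 had 450 and 461 CPM in 3D uninduced libraries, against 985 and 1042 in 2D uninduced libraries. The groups did not overlap and each pair was tight. Igfbp4 fell by 1.15 ± 0.29 on the log2 scale (2.23-fold, adjusted p = 0.0300), 1 call among 8 genes where 9.44% of all genes were called (5.42% higher and 4.02% lower). Its call was lost when any 1 of the 6 libraries other than the 3D induced pair was left out (adjusted p = 0.0606 to 0.167), with a value between -1.22 and -1.13 throughout. The 8 preadipocyte and fibroblast markers, none at 0, summed to 13498 and 15590 CPM in 3D uninduced and 40352 and 41192 CPM in 2D uninduced libraries. Most of each sum came from Col1a1 and Col1a2, which were lower in spheroids but not called (adjusted p = 0.104 and 0.0531, edgeR). Of the 8 markers 3 fell (Dlk1, Dcn and Vim), and Pdgfrb, not called, was higher in spheroids (0.26 log2). The part of these markers in the Igfbp4 difference was not tested. Of 8 adipocyte markers, 2 rose in the same comparison. Plin1 had 79 and 111 counts in 3D uninduced libraries, against 1 and 0 counts in 2D uninduced libraries, and Cd36 had 17 and 69 counts, against 9 and 1. The 8 adipocyte markers summed to 1074 and 1435 CPM in 3D uninduced libraries, against 1674 and 1710 CPM in 2D uninduced libraries. Nearly all of each sum was Lpl, which was not called (987 and 1342 CPM, against 1601 and 1639 CPM). Of 5 macrophage markers 2 were tested: Cd14 rose (2.16 log2), and Csf1r was not called (0.78 log2). Of 5 endothelial markers 2 were tested, both with few counts. Tek had 0 counts in both 3D uninduced libraries, against 17 and 12 counts in 2D uninduced libraries. Pecam1, not called, went the other way, with 14 and 8 counts in 3D uninduced libraries, against 9 and 4 in 2D uninduced libraries. The part of these markers was not tested either.

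Igfbp5 had the largest fitted difference of the 8 genes. It had 2.65 and 0.436 CPM in 3D uninduced libraries (36 and 6 counts), against 9.56 and 9.72 CPM in 2D uninduced libraries (192 and 129 counts). The spheroid libraries lay below both flat ones but differed 6.08-fold from each other. The difference of -2.64 ± 0.84 log2 was not called (adjusted p = 0.0616), but was called in 6 of 15 alternatives, among them the replicate block (-2.82, adjusted p = 0.0487), DESeq2 (-2.66, adjusted p = 0.00996) and the 4 uninduced libraries alone (-2.65, adjusted p = 0.0124). It was -1.86 without 3D uninduced replicate 2 and -4.44 without 3D uninduced replicate 1.

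Igfbp3 and Igfbp7 passed the adjusted p but not the 2-fold limit, in opposite directions. Igfbp3 had 21.0 and 18.2 CPM in 3D uninduced libraries, against 34.1 and 37.6 in 2D uninduced libraries (-0.87 ± 0.25 log2, adjusted p = 0.0429). Igfbp7 had 464 and 571 CPM in 3D uninduced libraries, against 335 and 367 in 2D uninduced libraries (0.56 ± 0.13 log2, 1.47-fold higher, adjusted p = 0.0210). With Igfbp4, 3 of 8 genes had an adjusted p under 0.05 at any fold, against 21.1% of all genes. Igfbp7 overlaps the polymerase gene Polr2b on the other strand, and the strand setting of the counting is not given in the sources used here. Polr2b had 148 and 137 CPM in 3D uninduced and 127 and 130 CPM in 2D uninduced libraries, well below Igfbp7.

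The remaining genes were not called. Igfbp6 had 12.7 and 10.3 CPM in 3D uninduced libraries, against 17.1 and 17.9 in 2D uninduced libraries (-0.61 ± 0.23 log2, adjusted p = 0.104). Igf1 had 90.2 and 110 CPM in 3D uninduced libraries, against 130 in both 2D uninduced libraries (-0.38 ± 0.36 log2, adjusted p = 0.493, 95% interval -1.20 to 0.45). Igf2r had 762 and 663 CPM in 3D uninduced libraries, against 931 and 991 in 2D uninduced libraries (-0.43 ± 0.36 log2, adjusted p = 0.424). Igf1r was on the other side of 0, with 67.8 and 48.6 CPM in 3D uninduced libraries, against 47.5 and 43.6 in 2D uninduced libraries (0.35 ± 0.29 log2, adjusted p = 0.419). All 8 genes had groups that did not overlap, against 73.3% of all genes tested, and their median was -0.52 log2, beside 0.03 over all genes.

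Between induced cultures, Igfbp3 and Igfbp4 were both lower in spheroids. Igfbp3 had 4.13 and 7.61 CPM in 3D induced libraries, against 18.4 and 20.9 in 2D induced libraries. It fell by 1.74 ± 0.26 on the log2 scale (3.33-fold, adjusted p = 0.00358). Igfbp4 had 548 and 259 CPM in 3D induced libraries, against 1327 and 1328 CPM in 2D induced libraries. It fell by 1.72 ± 0.30 on the log2 scale (3.29-fold, adjusted p = 0.00589). These were 2 calls among 8 genes, where 12.4% of all genes were called (6.94% higher and 5.46% lower). They were also the 2 genes with an adjusted p under 0.05 at any fold, against 28.7% of all genes. The 8 adipocyte markers summed to 4087 and 4561 CPM in 3D induced libraries, against 10746 and 10256 CPM in 2D induced libraries, and 7 of the 8 fell. The 8 preadipocyte and fibroblast markers summed to 17168 and 6503 CPM in 3D induced libraries, against 26189 and 25817 CPM in 2D induced libraries, and 3 of the 8 fell. Most of each sum came from Col1a1 and Col1a2, neither of them called, and Pdgfrb, not called, was higher in spheroids (0.4 log2). The macrophage marker Cd14 rose by 1.82 log2, and Csf1r, the other macrophage marker tested, was not called (0.21 log2). The part of these markers in the Igfbp3 and Igfbp4 differences was not tested. Both calls held without each library in turn and were lost when the 4 induced libraries were fitted alone (adjusted p = 0.0504 and 0.0580). Without 3D induced replicate 1 or 2, the value was -1.37 or -2.25 for Igfbp3 and -2.35 or -1.28 for Igfbp4.

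Igfbp5 had 1.69 and 0.117 CPM in 3D induced libraries (25 and 2 counts), against 4.91 and 6.09 CPM in 2D induced libraries (55 and 87 counts), a difference of -2.65 ± 0.90 log2 that was not called (adjusted p = 0.0618). It was called with DESeq2 (-2.63, adjusted p = 0.0103) and with the replicate block (-2.87, adjusted p = 0.0463, edgeR). It was also called without 3D induced replicate 1 (-5.46 log2), where that group has 1 library. Igf1 had 132 and 51.6 CPM in 3D induced libraries, on either side of the 64.3 and 61.6 CPM of 2D induced libraries (0.54 ± 0.36 log2, adjusted p = 0.291). Without 3D induced replicate 2 Igf1 was called higher (1.07 log2), with 1 library left in that group, and without replicate 1 it was at -0.28. Igf2r (-0.13 ± 0.36), Igf1r (0.14 ± 0.29) and Igfbp6 (0.19 ± 0.24 log2) overlapped between the groups, with adjusted p of 0.807, 0.754 and 0.579. Igfbp7 had 383 and 407 CPM in 3D induced libraries, against 347 and 341 in 2D induced libraries (0.20 ± 0.13 log2, adjusted p = 0.277). Groups did not overlap in 4 of the 8 genes, against 63.2% of all genes tested.

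**Figure D4:**
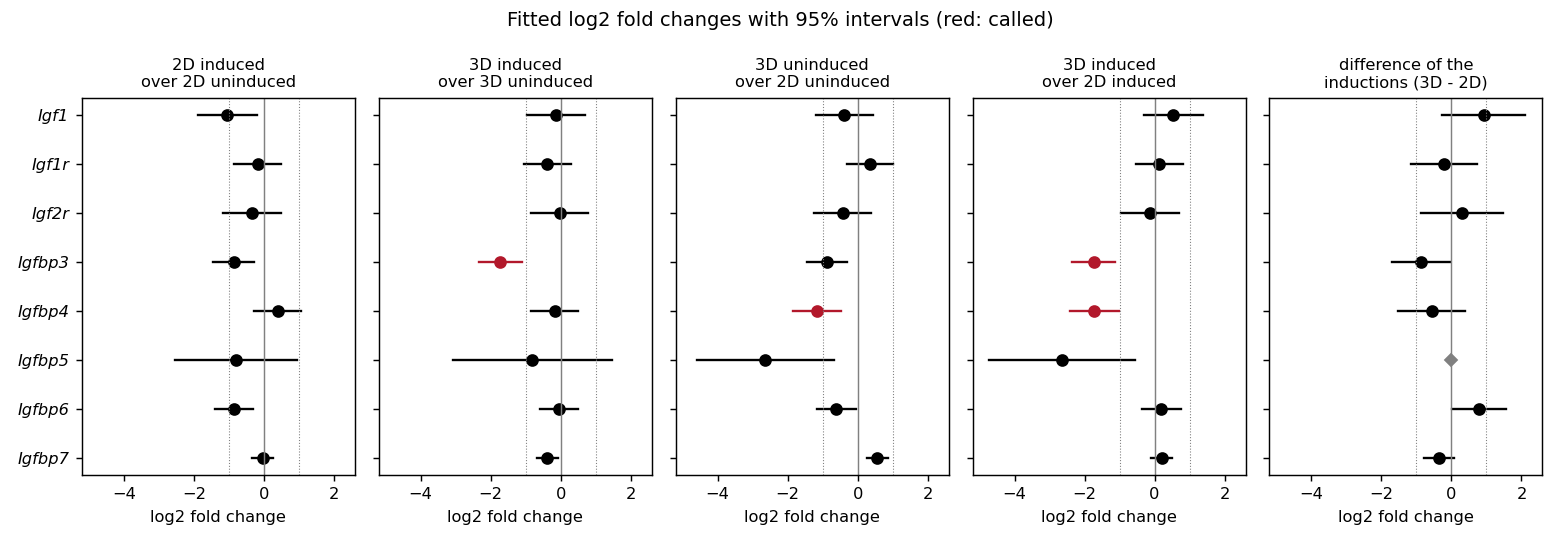
Fitted log2 fold changes of the 8 tested genes in the 4 comparisons and the difference between the 2 inductions, with 95% intervals as horizontal lines, called values in red and dotted lines at 2-fold. Calls are Igfbp3 with induction in 3D (-1.73), Igfbp4 between uninduced cultures (-1.15), and Igfbp3 (-1.74) and Igfbp4 (-1.72) between induced cultures; for Igfbp5 the last panel shows the value without an interval.

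Whether induction acted differently in the 2 formats was tested as the induction difference in 3D minus that in 2D. By edgeR, 0 of 8 genes were called, against 0.38% of all genes tested (0.0393% higher and 0.341% lower), and DESeq2 and limma-voom also called 0. At an unadjusted p under 0.05 there were 2 genes, Igfbp3 (-0.87 ± 0.36 log2, adjusted p = 0.621) and Igfbp6 (0.80 ± 0.33 log2, adjusted p = 0.631). No share of all genes is given at the unadjusted threshold. Igf1 was at 0.92 ± 0.51 log2 (adjusted p = 0.753, 95% interval -0.26 to 2.09), and Igfbp4 at -0.56 ± 0.41 log2 (adjusted p = 0.826, 95% interval -1.52 to 0.39). Leaving out 3D induced replicate 1 moved Igfbp4 to -1.19 and Igfbp6 to 1.08 log2. Leaving out replicate 2 moved Igf1 to 1.44 and Igfbp3 to -1.38 log2. Either fit leaves 1 library in that group, with no spread of its own, so only the values are given. The 4 pairwise comparisons share libraries with each other, so their values are set side by side here and not counted as separate evidence.

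Over the 8 libraries, Igfbp4 and Igfbp5 had the closest pattern of any pair among the 8 genes (Pearson r of log2 CPM 0.88), followed by Igf2r with Igfbp5 (0.80) and with Igf1 (0.76). Igfbp7 ran against Igfbp4 and Igfbp5 (-0.66 with each). Set against 11102 other genes, the closest to Igfbp3 were Dnajc10, Lgmn and Aaed1 (r = 0.980, 0.978 and 0.976), and the closest to Igfbp4 were Fggy, Actn3 and Cd99l2 (0.994, 0.994 and 0.994). Closest to Igfbp5 were Slc50a1, Arhgef6 and Gmpr (0.989, 0.984 and 0.983), to Igfbp6 Nub1, Spry2 and Zfp995 (0.971, 0.954 and 0.953), and to Igfbp7 Emb, Fcrlb and Fam20c (0.968, 0.959 and 0.959). For Igf1 they were Zbp1, Hdac4 and Herc6 (0.991, 0.988 and 0.987), for Igf1r Akap9, Ngfr and Gsap (0.978, 0.978 and 0.976), and for Igf2r Mical1, Utrn and Sirt5 (0.995, 0.992 and 0.985). These correlations describe 8 points that share 4 groups and the split between the 3D induced libraries.

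Antisense RNAs were low beside the 3 genes annotated with one. Gm34648, opposite Igfbp7, had 0 to 4 counts per library. Igf1os, opposite Igf1, had 0 to 3 counts per library. Airn, a noncoding RNA opposite Igf2r that is known for silencing the paternal Igf2r copy in mice, had 11.2 to 23.1 CPM over the 8 libraries. Without a stated strand setting, reads of Airn and Igf2r cannot be fully told apart, though Airn was far lower than Igf2r in every library.

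Among 47 other genes of the IGF pathway, 44 were tested, and the calls lay between the formats. With induction, edgeR called 0 of 44 in 2D and 0 of 44 in 3D, beside 4.52% and 0.911% of all genes, so few calls would be found among 44 genes at the background share. At an unadjusted p under 0.05 there were 13 and 11, but no share of all genes is given at that threshold, so these counts have no background here. DESeq2 called 1 in each (Adam12, a protease that cuts binding proteins), and limma-voom called 2 in 2D (Htra1 and Adam12) and 0 in 3D. Adam12 had 221 and 95.8 CPM in 3D induced libraries, against 72.6 and 79.1 in 3D uninduced libraries. In flat culture it had 151 and 165 CPM with induction, against 69.7 and 72.5 CPM without. For the difference of the 2 inductions edgeR, DESeq2 and limma-voom called 0 of 44, with 3 at an unadjusted p under 0.05, again without a share of all genes. The kinase cascade (13 genes such as Akt1 and Mtor), the 3 FOXO factors, the 6 genes of the growth hormone axis and the 3 mRNA-binding IMP genes had 0 calls by edgeR in every comparison.

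Between uninduced cultures 5 of 44 were lower and 1 higher in spheroids, beside 4.02% and 5.42% of all genes. The second ligand, Igf2, had 4.2 and 3.49 CPM in 3D uninduced libraries, against 186 and 205 in 2D uninduced libraries (-5.66 ± 0.32 log2, adjusted p = 0.000144). It was also lower between induced cultures, with 7.11 and 3.28 CPM in 3D induced libraries, against 147 and 153 in 2D induced libraries (-4.87 ± 0.30 log2, adjusted p = 0.000165), the 1 call of 44 there. Both Igf2 calls held in all 15 alternatives.

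Igf2 apart, 2 genes next to the receptor fell in uninduced spheroids. Irs1, the docking protein of the insulin and IGF1 receptors, had 48.7 and 49.7 CPM in 3D uninduced libraries, against 107 and 108 in 2D uninduced libraries (-1.13 ± 0.26 log2, adjusted p = 0.0222), a call lost without any 1 of these 4 libraries. Grb10, an adaptor that restrains these receptors, had 0.369 and 0.364 CPM in 3D uninduced libraries (5 counts each), against 2.84 and 3.69 CPM in 2D uninduced libraries (-3.12 ± 0.40 log2, adjusted p = 0.00263). Insr, the insulin receptor itself, was called in none of the comparisons by edgeR and had 79.3 and 66.2 CPM in 3D uninduced and 71.0 and 73.8 CPM in 2D uninduced libraries.

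Of the genes that govern cutting of the binding proteins, 2 fell and 4 tested ones were not called, where 4.02% of all genes were lower. Among the 4, Pappa2 passed the adjusted p but not the 2-fold limit (-0.94 ± 0.22 log2, adjusted p = 0.0229, edgeR). Stc2, with few counts, was at -2.71 ± 0.96 log2 (adjusted p = 0.0824, edgeR), and Adam12 was at 0.09 log2. Stanniocalcin 1 (Stc1), whose protein blocks pappalysins, had 12.5 and 15.6 CPM in 3D uninduced libraries, against 50.7 and 53.1 in 2D uninduced libraries (-1.88 ± 0.30 log2, adjusted p = 0.00579, and 0.0697 without 3D uninduced replicate 1). The protease Htra1 had 12 and 4 counts in 3D uninduced libraries, against 59 and 32 counts in 2D uninduced libraries (-2.18 ± 0.51 log2, adjusted p = 0.0219), and its call was lost without 5 of the libraries in turn. Pappa, the protease of Igfbp4, was not called and had 21.8 and 17.1 CPM in 3D uninduced libraries, against 31.9 and 35.3 in 2D uninduced libraries. The 1 gene that rose was Gnptab, a subunit of the enzyme that makes the mannose 6-phosphate tag read by Igf2r, with 157 and 177 CPM in 3D uninduced libraries, against 79.3 and 78.5 in 2D uninduced libraries (1.08 ± 0.12 log2, adjusted p = 0.00153, and 0.99 without 3D uninduced replicate 2).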

How the data were processed

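RNA of 8 libraries was sequenced after preparation with a directional kit, per the labels' protocols. The authors deposited raw read counts per Ensembl gene, which are whole numbers with no normalization. The submitters' processing notes list build mm10 and 4 tools: featureCounts 1.6.3, HISAT2 2.1.0, Trimmomatic 0.38 and FastQC 0.11.7. The sources used here give neither tool settings, with strand among them, nor the annotation release. A sample's description names its column. The flat uninduced columns are numbered differently from their titles, and the title numbers are used.

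All other values were computed in R 4.3.3 with DESeq2 1.42.0, limma 3.58.1 and edgeR 4.0.16. Symbols (49326 of 49585 genes) and positions are those of GENCODE M21 (GRCm38/mm10), and genes without a symbol took 0.0285% of all counts. The low-count filter was filterByExpr (minimum count 10, 4 groups as design). Counts were scaled by TMM and fitted with the robust quasi-likelihood model, 1 mean per group, 8 libraries, 4 residual degrees of freedom. Tests were two-sided, and p-values were adjusted by Benjamini-Hochberg across 15255 genes. A standard error is the absolute log2 change over the root of F. The alternatives were DESeq2 size factors, upper-quartile scaling, no filter, DESeq2, limma-voom group weights, the compared groups alone, a replicate block and leaving out each library, where the lone library of a group is assumed to vary like the other groups. Correlations used log2 CPM with a prior count of 2, and genes alike were sought among those whose mean log2 CPM reached 1, leaving out Gm and Rik symbols. Named genes are the 9 genes, up to 6 called pathway genes per comparison by adjusted p, and the 3 most alike genes each. Insr, Pappa, Pappa2, Stc2, Adam12, the markers and the overlapping genes were named after their values were seen. The genes, lists and tests were chosen with earlier results of these data known.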

Additional observations from a re-analysis of the deposited data

How the results depend on the processing

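The 8 tested genes in 5 comparisons gave 40 fitted values, each under up to 15 alternatives. Direction and side of the threshold were kept in 535 of these, the call was lost in 16, gained in 19 and the direction turned in 22. None of the 4 calls held in all 15. The cause was not tested. Numbers called over all genes also changed with the setting and are given below for some of the settings. For the other settings, the counts that follow have no background here. The number of the 8 genes called with induction in 2D was 0, against 1 with DESeq2, 1 with limma-voom group weights, 1 with the groups compared alone and 0 to 1 leaving out 1 library. With induction in 3D it was 1, against 0 with limma-voom group weights, 0 with the groups compared alone and 0 to 1 leaving out 1 library. Between uninduced formats it was 1, against 2 with DESeq2, 2 with limma-voom, 2 with the groups compared alone and 0 to 2 leaving out 1 library. Between induced formats it was 2, against 3 with DESeq2, 0 with the groups compared alone and 2 to 3 leaving out 1 library. For the interaction it was 0, and 0 to 2 leaving out 1 library.

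Directions that turned did so leaving out 1 library, apart from Igfbp5 in the interaction, which was -0.01 and became 0.02 with DESeq2. The ranges with 1 library left out were, for induction in 3D, -0.95 to 0.39 for Igf1, -0.92 to 0.01 for Igf1r, -0.85 to 0.48 for Igf2r, -0.81 to 0.26 for Igfbp4, -3.62 to 0.99 for Igfbp5 and -0.39 to 0.22 for Igfbp6. Between induced formats they were -0.28 to 1.07 for Igf1, -0.40 to 0.54 for Igf1r, -0.95 to 0.38 for Igf2r and -0.14 to 0.47 for Igfbp6. In the interaction they were -0.75 to 0.19 for Igf1r, -0.51 to 0.82 for Igf2r and -2.82 to 1.80 for Igfbp5.

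Over all genes tested, calls for induction in 2D numbered 689, against 1348 with limma-voom, 1213 with the groups compared alone and 225 to 1169 leaving out 1 library. For induction in 3D they numbered 139, against 336 with no filter, 242 with DESeq2, 88 with limma-voom, 0 with the groups compared alone and 24 to 1225 leaving out 1 library. Between uninduced formats they were 1440, and 552 to 2170 leaving out 1 library. Between induced formats they were 1892, against 825 with the groups compared alone and 871 to 3025 leaving out 1 library. For the interaction they were 58, against 209 with no filter, 163 with DESeq2, 107 with limma-voom and 1 to 686 leaving out 1 library.

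Replicate numbers are shared between groups, but the deviations of same-numbered libraries correlated at -0.01 to 0.03 in 5 of the 6 group pairs. For 3D uninduced with 3D induced libraries the correlation was 0.21. No label ties the numbers to a shared culture, so they are not taken as pairs. With a replicate block, 2 genes were called between uninduced formats and 3 between induced formats, the added one being Igfbp5 in both. Depth limits Igfbp2, with 0 to 4 counts per library. Every group has 2 libraries.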
